A study of Mus musculus with 2 samples.

Results

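The endoplasmic reticulum (ER) genes described here encode chaperones and folding enzymes, the sensors of ER stress, the channel through which new secretory proteins enter the ER, the machinery that removes misfolded ones, and the amino acid and stress genes that the transcription factor ATF4 controls. They were taken as a named list of 39 genes, and all 39 had at least 1 probe set of their own on the array, out of 12393 genes that did. The tissue was uterus from 4-month-old female mice of a mixed C57Bl/6J X OLA129 background on day 8 of pregnancy, dissected between the implantation sites. One sample came from control females and the other from females homozygous for a deficiency of Cbs (genotype "Cbs null"), and each was hybridised to 1 Affymetrix array. Cbs makes cystathionine beta-synthase, the enzyme that joins homocysteine to serine. The labels give neither the Cbs allele nor whether a sample was 1 animal or a pool. With 1 array per group, no difference below could be checked against the spread between animals or tested. Pairs of signals are given in the order control, then Cbs null.

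A cell that makes many secreted or membrane proteins folds them in the ER with the help of chaperones such as BiP, calreticulin and the protein disulfide isomerases. When unfolded proteins accumulate, IRE1 splices the mRNA of XBP1, ATF6 is cut free from the membrane, and PERK phosphorylates the translation factor eIF2alpha. XBP1 and ATF6 then raise chaperone and degradation genes, while phosphorylated eIF2alpha favours translation of ATF4, which raises genes of amino acid supply and, under lasting stress, CHOP. Homocysteine is an agent known to provoke this response in cultured cells, and decidual and glandular cells of the pregnant uterus are secretory.

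The deposited signals are linear intensities on 1 common scale, with medians of 74.55 and 75.6. Weak signals have no reliable order, so values under a floor of 43.2 (the 40th percentile over both arrays) were raised to it. A gene was represented by its brightest probe set and called measured when that probe set passed the floor in either sample, which 8407 genes did. The median of their log2 ratios, Cbs null over control, was 0.019. Transcript integrity, read as 3' over 5' signal, was similar in both samples (Gapdh, 1.31 and 1.25; Actb, 1.95 and 2.05). The Cbs transcript itself read 79.8 and 42.6. Of the uterine markers, Hoxa10 (1187.9 and 1358.8) and Hoxa11 (1081.7 and 1077) were well above the floor, whereas the progesterone receptor gene Pgr read 49.1 and 36.8 and the estrogen receptor gene Esr1 read 23.9 and 37.9, so neither receptor was well measured by its probe set.

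The element through which ATF6 and XBP1 act on chaperone promoters is described first, because its presence does not depend on the array signal. This ER stress element reads CCAAT, then 9 bases of any kind, then CCACG, and was sought on both strands in the 250 bases before each start site. RefSeq windows (GRCm38.p6) were at hand for 34 of the 39 genes, all but Hyou1, Manf, Atf6, Sec61a1 and Derl1. The element lay in the windows of 8 genes, 23.5% of the 34. Over all promoters it lay in 35 of 27025 genes and in 0.113% of 32851 windows. The list was made by function and includes genes that ATF6 and XBP1 raise. A higher share thus follows from that choice and is no result of these samples. The holders were 7 chaperone and folding genes and Syvn1, which encodes the ubiquitin ligase HRD1 of ER-associated degradation. The sequences are shown because they are the shared feature of these genes, with the fixed bases of the element in capitals. They run 5′ to 3′ on the strand of the gene, so that an element on the other strand appears as CGTGG, 9 bases and ATTGG. Each lies upstream of the transcribed part of its gene.

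Hspa5 encodes BiP, the central ER chaperone, and its whole window of 250 bases (chr2:34771840-34772089, + strand) holds 1 complete element, at -65 to -47 from the start site.
Hspa5: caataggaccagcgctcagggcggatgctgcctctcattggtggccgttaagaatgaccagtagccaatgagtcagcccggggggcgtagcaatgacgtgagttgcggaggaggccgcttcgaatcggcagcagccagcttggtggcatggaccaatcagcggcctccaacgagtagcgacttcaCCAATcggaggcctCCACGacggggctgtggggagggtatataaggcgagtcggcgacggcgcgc

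The other holders are shown with 15 bases on each side of the element. Hsp90b1, the gene of the chaperone GRP94, held 2 elements, at -212 and at -107 (chr10:86705623-86705671 and chr10:86705518-86705566, - strand).
Hsp90b1 distal: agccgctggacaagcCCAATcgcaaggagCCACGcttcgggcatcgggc
Hsp90b1 proximal: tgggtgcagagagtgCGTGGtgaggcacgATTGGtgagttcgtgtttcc
Calr, the gene of the lectin chaperone calreticulin, held 1 at -162 (chr8:84847060-84847108, - strand), and Canx, that of its membrane-bound relative calnexin, 1 at -145 (chr11:50325785-50325833, - strand).
Calr: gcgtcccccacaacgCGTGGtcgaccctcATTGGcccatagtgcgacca
Canx: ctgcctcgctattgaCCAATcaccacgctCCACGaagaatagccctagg
The disulfide isomerase gene Pdia6 held 1 at -98 (chr12:17266476-17266524, + strand), the BiP co-chaperone gene Dnajc3 1 at -105 (chr14:118937812-118937860, + strand), the stress-induced secreted protein gene Creld2 1 at -126 (chr15:88819505-88819553, + strand) and Syvn1 1 at -44 (chr19:6046517-6046565, + strand).
Pdia6: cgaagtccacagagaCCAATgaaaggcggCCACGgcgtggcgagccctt
Dnajc3: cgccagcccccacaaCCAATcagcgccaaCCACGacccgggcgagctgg
Creld2: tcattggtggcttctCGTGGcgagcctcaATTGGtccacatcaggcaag
Syvn1: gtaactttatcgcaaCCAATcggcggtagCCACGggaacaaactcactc

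Other letters were sought in the same way. The short part CCACG, which is contained in the element, occurred in 25 of the 34 genes (73.5%). Over all promoters it occurred in 8368 of 27025 genes and in 28.3% of windows. The unfolded protein response element TGACGTGG occurred in 0.563% of all windows, the composite C/EBP-ATF element TGATGNAAT in 0.816% and its special case TGATGCAAT in 0.167%. Each occurred in 0 of the 34 genes. A match is a description of letters and not of binding, and the absence of a match covers only these windows.

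The comparison of both samples asked whether the uterus between implantation sites carries more of these transcripts when Cbs is missing. In their brightest probe sets, the measured genes of all 3 arms of the list lay within 1.5-fold of equality. Of the 39 genes, 35 lay above the floor in both samples and none in only 1 of them, so that the floor fixed no direction. None of the 35 was 1.5-fold higher and none 1.5-fold lower in the Cbs null sample, where 3.59% of all measured genes passed 1.5-fold upwards and 3.38% downwards. Nor did any reach 2-fold, against 0.797% higher and 0.714% lower among all genes. Counts of 0 among 35 genes lie near all of these shares. The 1.5-fold shares were smaller among brighter genes. With the floor at the 60th percentile, which 33 members passed, they were 2.18% higher and 2.49% lower. At 1.2-fold, a limit chosen after the values were seen, 1 gene was lower (Calr) and none higher, against 14.2% and 16.7% of all genes. Their log2 ratios ran from -0.33 to 0.24 with a median of -0.052, and 70.7% of all measured genes lay in the same range. Counted by sign, 14 were above 0 and 21 below it, where 53.3% of all genes were above and 46.5% below.

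**Figure D1:**
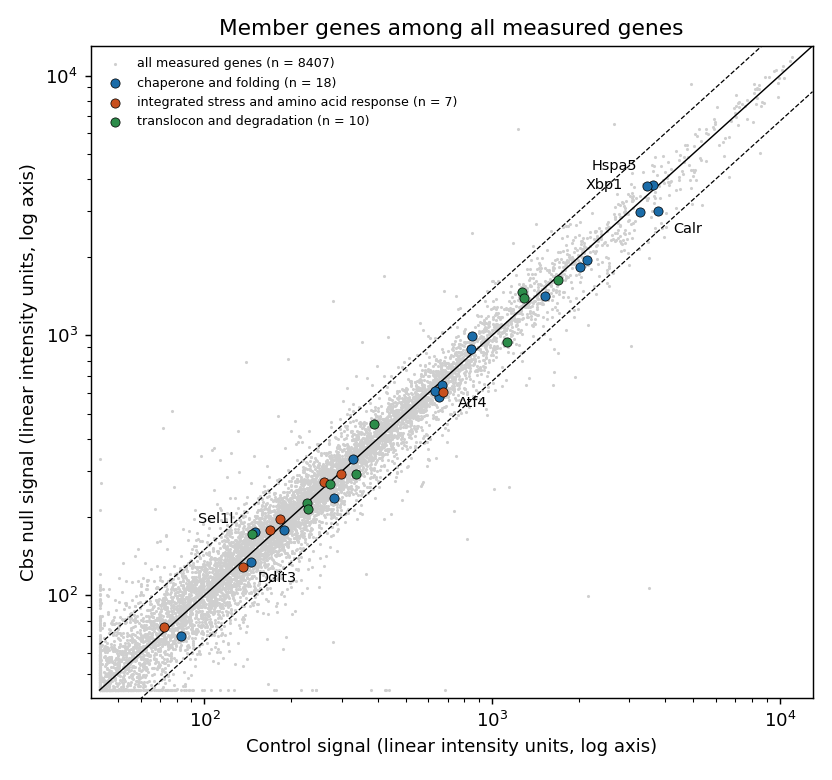
Signal of the 35 measured members in the control sample (x axis) and the Cbs null sample (y axis), in linear intensity units on log axes, over all 8407 measured genes in grey, whose values under the floor are drawn at it. The solid line marks equal signal and the dashed lines 1.5-fold; every coloured point lies between the dashed lines, and Calr lies lowest relative to the solid line.

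These differences can be set against the disagreement between probe sets of 1 gene. Where a gene had a pair of probe sets above the floor on both arrays, their log2 ratios differed by a within-gene SD of 0.215 over 2757 genes and of 0.135 over the 20 list members with such a pair. The SD of the 35 log2 ratios between genes was 0.153, against 0.325 over all genes above the floor on both arrays. Those genes were not matched to the members for signal. The within-gene SD holds only the measurement within these arrays and no variation between mice. Of the 20 members with several probe sets above the floor, 5 were higher in all of them, 5 lower in all and 10 had probe sets of both directions.

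Among the 18 measured chaperone and folding genes, 12 were lower and 6 higher in the Cbs null sample, with a median log2 ratio of -0.094. Calr read 3788.1 and 3014.9, 1.26-fold lower. Its other probe sets read 2236.2 and 1841.5, and 2756.1 and 2160, so all 3 were lower, by log2 ratios of -0.28 to -0.35. Calr was the member with the lowest ratio, and its probe sets lay close together. All 3 have the suffix _a_at or _x_at, so Calr could not be read without such suffixed probe sets. The same held for Hspa5, Hsp90b1 and P4hb.

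Hspa5 read 3629.5 and 3795.4, a log2 ratio of 0.064. Its second probe set went the other way, from 1318.2 to 1221.6, and the mean over both was -0.023, so BiP showed no difference in a settled direction. Hsp90b1 read 2022 and 1829.5 in its brighter probe set and 739 and 610.1 in the other, both lower, at -0.14 and -0.28. Canx read 2141.9 and 1958.9 (-0.13), with its other probe sets at -0.016 and 0.031.

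The 4 protein disulfide isomerase genes, whose products form and reshuffle disulfide bonds, were all slightly lower. P4hb read 3267.2 and 2987.3, Pdia3 1532.4 and 1413.2, Pdia4 145.7 and 134.6 and Pdia6 667.3 and 643.8. Their log2 ratios lay between -0.13 and -0.052, within the SD of 0.215 between probe sets of 1 gene. Ero1a, the oxidase that recharges these isomerases, read 282.1 and 237.8 (-0.25), whereas its other probe sets stood at 0.037 and 0.20.

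Of the BiP partners, the co-chaperone genes Dnajb9 and Dnajb11 read 853 and 990.9 (0.22), and 188.3 and 179 (-0.073). Dnajc3, which encodes the PERK inhibitor p58IPK, had 4 probe sets above the floor that disagreed. Its brightest read 655.9 and 581.1 (-0.17), 2 others stood at -0.055 and -0.22, and the last read 128.4 and 236.2, 1.84-fold higher. That probe set had the highest ratio of any in the list, and the remaining Dnajc3 probe sets did not share it. The nucleotide exchange factor gene Hyou1 read 632.8 and 609.1 (-0.055), with a second probe set at 0.21. The secreted stress proteins stood close to equality, Manf at 842.2 and 889.9 (0.079) and Creld2 at 328.8 and 334.1 (0.023). Sdf2l1, a BiP-associated folding factor, read 83.2 and 69.6 (-0.26) in its single probe set.

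The transcription factors of this arm, Xbp1 and Atf6, were slightly higher. Xbp1 read 3460.7 and 3769.5, a log2 ratio of 0.12, and its 4 probe sets were all higher, from 0.057 to 0.30. These signals are of total Xbp1 transcript and do not tell the spliced from the unspliced form. Atf6 read 150.4 and 175.5 (0.22) in its single probe set. Against the SD of 0.215 between probe sets of 1 gene, Xbp1 lay within it and Atf6 just past it. Ern1, the gene of the sensor IRE1alpha, was under the floor in both samples in all 3 of its probe sets, the brightest reading 11.9 and 10.3. Without Xbp1, Atf6 and Ern1, 12 of the 16 remaining chaperone and folding genes were lower, with a median of -0.116.

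**Figure D2:**
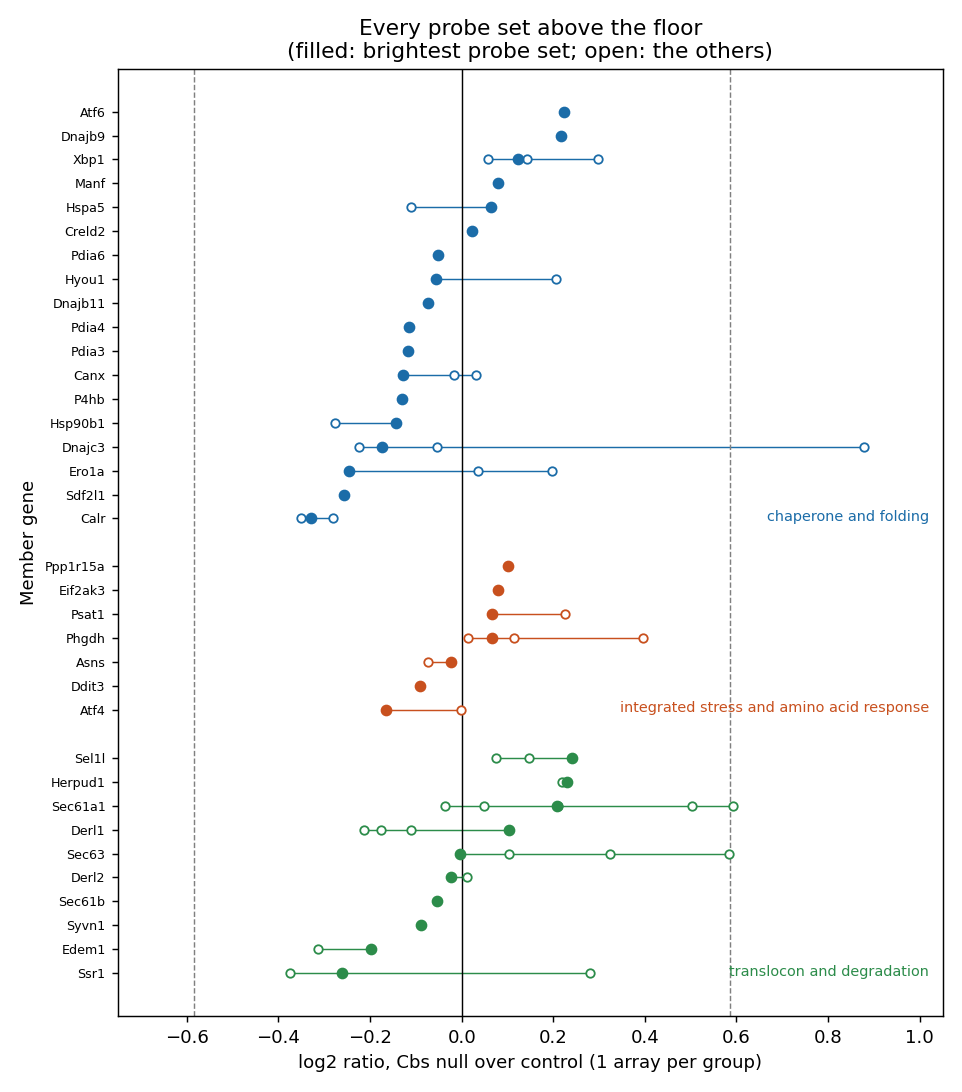
Ratio of Cbs null to control signal (log2) for each of the 74 probe sets above the floor, by gene and arm; filled points are the brightest probe set of a gene, open points the others, and the dashed lines mark 1.5-fold. The filled points lie between -0.33 and 0.24, and open points pass the right dashed line only for Dnajc3 and Sec61a1.

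The 8 genes with the ER stress element shown above had a median log2 ratio of -0.109, with 6 lower and 2 higher. From the top, Hspa5 stood at 0.064, Creld2 at 0.023, Pdia6 at -0.052, Syvn1 at -0.088, Canx at -0.13, Hsp90b1 at -0.14, Dnajc3 at -0.17 and Calr at -0.33. The 22 measured members whose windows lacked it had a median of -0.038, with 14 lower and 8 higher. On the array as a whole, 15 measured genes carried the element, 6 higher and 9 lower, with a median of -0.052. Outside the list, 7 genes carried it. Derl3, which encodes a further derlin of the degradation channel, read 46.3 and 99.2 (2.14-fold higher), and Acacb, an acetyl-CoA carboxylase gene, read 120.9 and 64.9 (1.86-fold lower). The other 5 were Ero1b (0.34), Pan2 (0.45), Adcy3 (0.24), Alg12 (-0.23) and Zfp57 (-0.030). Genes with the element thus took both directions.

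**Figure D3:**
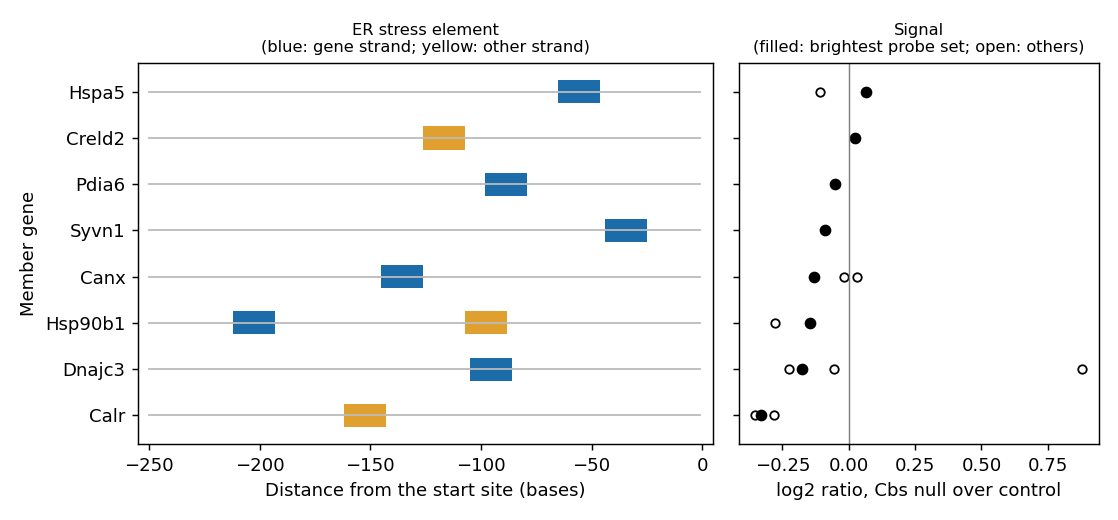
Left, position of the ER stress element in the 250 bases before the start site of the 8 members that hold it, on the strand of the gene (blue) or the other strand (yellow); right, log2 ratio of Cbs null over control for their probe sets above the floor. Hsp90b1 has 2 elements, and 6 of the 8 filled points, the brightest probe sets, lie below 0.

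The integrated stress and amino acid genes had a median log2 ratio of 0.066 over 7 measured members, 4 higher and 3 lower. Their range, from -0.17 to 0.10, covers fewer genes than that of either other arm and leaves out the members under the floor. Atf4 read 677.5 and 604.2 (-0.17), with a second probe set at 260.7 and 260.4. Ddit3, which encodes the pro-apoptotic factor CHOP, read 136.4 and 128.1 (-0.091). Both factors were thus level or slightly lower in transcript, and ATF4 is regulated mainly at translation, which an array does not show.

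The enzymes were near equality too. Asns, asparagine synthetase and a classical ATF4 target, read 297.8 and 292.9 (-0.024), with a second probe set at -0.073. The serine synthesis genes Phgdh and Psat1, whose pathway supplies the serine that Cbs consumes, read 260 and 272.2 (0.066) and 72.2 and 75.6 (0.066). All 4 Phgdh probe sets and both of Psat1 were higher, by log2 ratios of 0.014 to 0.40 and of 0.066 to 0.23. Those of Phgdh all have the suffix _x_at and those of Psat1 _a_at and _s_at. Neither gene could therefore be read without such suffixed probe sets. Ppp1r15a, the gene of the eIF2alpha phosphatase subunit GADD34, read 182.6 and 195.8 (0.10), and Eif2ak3, that of PERK, read 169.5 and 179.1 (0.079).

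The remaining 3 members of this arm were under the floor in both samples. Trib3, the pseudokinase gene, read 28.1 and 42.7, and 20.1 and 38.9, in its pair of probe sets. Chac1, which degrades glutathione, read 32.8 and 32.6. Sesn2, a nutrient-sensing stress gene, read 15.3 and 33.2 in one probe set and 22.2 and 10.4 in the other, in opposite directions. No fold is given for them, since both values are at or under the floor.

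The translocon and degradation genes had a median of -0.014, with 4 of 10 higher and 6 lower. Sec61a1, the pore-forming subunit of the translocation channel, read 1270.6 and 1468.4 (0.21). Its 6 probe sets ran from -0.037 to 0.59, and the highest read 104.2 and 157.1, 1.51-fold higher. Sec63, which couples BiP to the channel, read 226.5 and 225.8 (-0.0045), while its other probe sets reached 0.58 where the signal was 79.5 and 119.2, just under 1.5-fold. For both genes the higher ratios came from their dimmer probe sets. Sec61b, the beta subunit, read 1699.6 and 1638.4 (-0.053). Ssr1, a subunit of the translocon-associated protein complex, read 1130.9 and 944.2 (-0.26) but 147 and 178.6 (0.28) in another probe set.

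On the degradation side, Herpud1 and Sel1l, which build the HRD1 ligase complex, were higher in every probe set above the floor. Herpud1 read 387.8 and 454.5 and, in the other probe set, 271.2 and 315.5, at 0.23 and 0.22. Sel1l read 146.3 and 172.8 (0.24), the highest ratio among the members, with others at 0.074 and 0.15. Edem1, which hands trimmed glycoproteins over for degradation, was lower in both probe sets, at 336.4 and 293.1 (-0.20) and 258.1 and 207.6 (-0.31). Syvn1 read 229 and 215.4 (-0.088). The derlin genes showed no common direction, with Derl1 at 1293.3 and 1388.5 (0.10) but lower in its other 3 probe sets, and Derl2 at 272.7 and 268.2 (-0.024).

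Counted by probe set, 38 of the 74 above the floor were higher and 36 lower, with a median of 0.014. At least 1.5-fold higher were 2, the Dnajc3 and Sec61a1 probe sets named above, and none was 1.5-fold lower, against 3.55% and 3.43% of all measured 1-gene probe sets. The medians of the 3 arms were -0.094, 0.066 and -0.014, and the difference between arms was not tested.

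Other genes of the same pathways were taken from lists written for their function, 193 of which were measured. Their median was -0.025, with 89 higher and 104 lower, of which 4 passed 1.5-fold upwards and 3 downwards, where 3.59% and 3.38% of all measured genes did. In the list of other ER folding and redox genes, 14 of 34 were higher and 20 lower. Agr2, a disulfide isomerase relative of mucus-producing cells, read 43.7 and 269.4, 6.16-fold higher from a control signal just above the floor, and 8.2 and 44.4 in a second probe set. Lower were Serpinh1, the collagen chaperone HSP47 (3897.8 and 2588.5, 1.51-fold, and 1.54-fold in a second probe set), P4ha2, a collagen prolyl hydroxylase subunit (332.2 and 212.5, 1.56-fold) and Rcn3, a calcium-binding ER protein (480.5 and 300.7, 1.60-fold). Under quantile normalization the Serpinh1 difference was just short of 1.5-fold. A dimmer probe set of Dnajc1 read 115.2 and 73.9 (1.56-fold lower), whereas its brightest read 531.4 and 519.8. In the same list Ppib, a prolyl isomerase, read 3954.3 and 3858.9, and P4ha1, another collagen prolyl hydroxylase subunit, read 227.8 and 190.7, both short of 1.5-fold.

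Markers of cell types moved beside these genes. Of 25 measured uterine epithelium markers, 24 were higher, with a median of 0.631 (4 passed the floor only in the Cbs null sample, which fixed their direction). The summed signal of the list was 11326.9 and 22491.2, much of the gain from Spink1 (1234.4 and 6218.7). Krt7 (0.057), Wfdc2 (0.013), Aqp8 (0.018) and Aqp5 (-0.014) of the same list were near equality. Of 9 markers of mucus-secreting epithelium on the array, which include Agr2 itself, 5 of 6 measured were higher, led by Muc5b at 77.3 and 512.8. Creb3l1 was lower, at 224.3 and 165.4 (-0.44), and Tff3, Spdef and Creb3l4 were under the floor in both samples. Stromal fibroblast markers had a median of -0.088, with 7 of 12 lower, where 46.5% of all genes were. The collagen genes Col1a1 (-0.63) and Col5a1 (-0.72) were the lowest of them, whereas Dcn (0.26), Vim (0.24), Hoxa10 (0.19), Pdgfra (0.11) and Hand2 (0.096) were higher. All 14 measured smooth muscle markers were lower, with a median of -0.364. Of 18 macrophage and dendritic cell markers, 17 were higher, with a median of 0.541. Of these, 1 (Aif1) passed the floor only in the Cbs null sample, which fixed its direction. Decidual cell markers were lower in 8 of 11 and uterine natural killer cell markers in 10 of 12. Of these, 4 and 7 were above the floor only in the control sample, which fixed their direction. Endothelial markers were lower in 7 of 12, where 46.5% of all genes were. Past 1.5-fold were Vwf, higher at 328.2 and 514, and Plvap, lower at 600 and 335.3. Of 9 plasma cell and B cell markers, 3 were above the floor, with Sdc1 (0.29, and -0.13 in its next brightest probe set) and Prdm1 (0.062) higher and Jchain, the joining chain of secreted antibody, lower at 1996.3 and 1260.8. In whole tissue, fewer cells of a type and less RNA per cell cannot be told apart, and the part of these cell types in the ER gene values was not tested.

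The ER to Golgi traffic list covers the coats and receptors that carry folded proteins onward and return escaped ones. In it, 25 of 35 measured genes were lower, where 46.5% of all genes were, with a median of -0.126. None of these genes reached 1.5-fold in its brightest probe set. Dimmer probe sets of Sar1a (265.3 and 173, 1.53-fold), Ergic1 (105.2 and 68.7, 1.53-fold) and Bet1 (66.5 and 44.1, 1.51-fold) were past 1.5-fold lower. No dimmer probe set of the list was 1.5-fold higher. The coat protein genes Sec13 (328.3 and 246.1, -0.42) and Sar1a (883.1 and 702.8, -0.33) and the retrieval receptor genes Kdelr3 (305.2 and 229.8, -0.41) and Kdelr2 (2309.6 and 1969.3, -0.23) were among the lower ones, chosen after their values were seen, apart from Kdelr2. Arf4, a small GTPase of the Golgi, read 2097.1 and 1942.9 (-0.11). The highest was Sec23b at 568.4 and 734.3 (0.37). Kdelr1, which like Kdelr2 and Kdelr3 returns escaped chaperones to the ER, was level at 1224.1 and 1221.9. The sign majority stayed under each of the 7 alternative settings, with medians from -0.146 to -0.108.

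N-glycan attachment and trimming genes, through which calreticulin and calnexin recognise their clients, had a median of 0.019, with 12 of 23 higher. The brightest, Stt3b and Rpn1 of the oligosaccharyl transferase, read 1938.2 and 1908.9, and 1816.5 and 1948.1. The other translocon and signal peptide genes had a median of -0.016, with 10 of 21 higher, and Spcs1 and Ssr3 read 1805.6 and 1659.2, and 1621.9 and 1421.3, with a second Spcs1 probe set at 1481.4 and 923.2 (1.60-fold lower). A dimmer Tram1 probe set read 41.2, under the floor, and 67.4, 1.56-fold higher than the floor. None of the measured genes of these 2 lists reached 1.5-fold in its brightest probe set. The other ER-associated degradation genes had a median of 0.057 with 13 of 24 higher. Derl3, described above, was the only one past 1.5-fold in its brightest probe set. A dimmer probe set of Selenos read 68.1 and 129 (1.89-fold higher). The single Derl3 probe set has an _a_at suffix and read under the higher floor of 120.3. Derl3 therefore did not count with that floor or without such probe sets. Rad23b, a proteasome shuttle gene, read 438.5 and 293.4, just short of 1.5-fold lower, and passed it after centring or quantile normalization.

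The other integrated stress genes had a median of -0.036, with 17 of 35 higher. Ddit4, the stress-induced mTORC1 inhibitor REDD1, read 275 and 465.8 (1.69-fold higher), and Gpt2, a mitochondrial alanine transaminase and ATF4 target, read 155.4 and 241 (1.55-fold higher), with its other probe sets at 0.48 and 0.11. Ddit4 passed 1.5-fold under all 7 alternative settings, but Gpt2 did not with the pseudocount, with the mean over probe sets or without suffixed probe sets. Atf3, a stress-induced partner of ATF4, went the other way at 124.7 and 83.9 (-0.57), and passed 1.5-fold after centring or quantile normalization. The 11 measured aminoacyl-tRNA synthetase genes, many of them ATF4 targets, had a median of -0.050 with 5 higher and 6 lower, and lay between -0.24 and 0.29. The eIF2 kinases, phosphatases and other ER stress transducers had a median of 0.045, with 13 of 21 higher. None passed 1.5-fold in its brightest probe set, and a dimmer one of Eif2ak1 read 87.7 and 58.1 (1.51-fold lower). The brightest genes, Tmbim6 and Creb3l2, read 1268.2 and 1438.9, and 805.9 and 756.8. The lowest ratio was that of Creb3l1 (224.3 and 165.4, -0.44) and the highest that of Rtcb (635.2 and 774.1, 0.29).

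**Figure D4:**
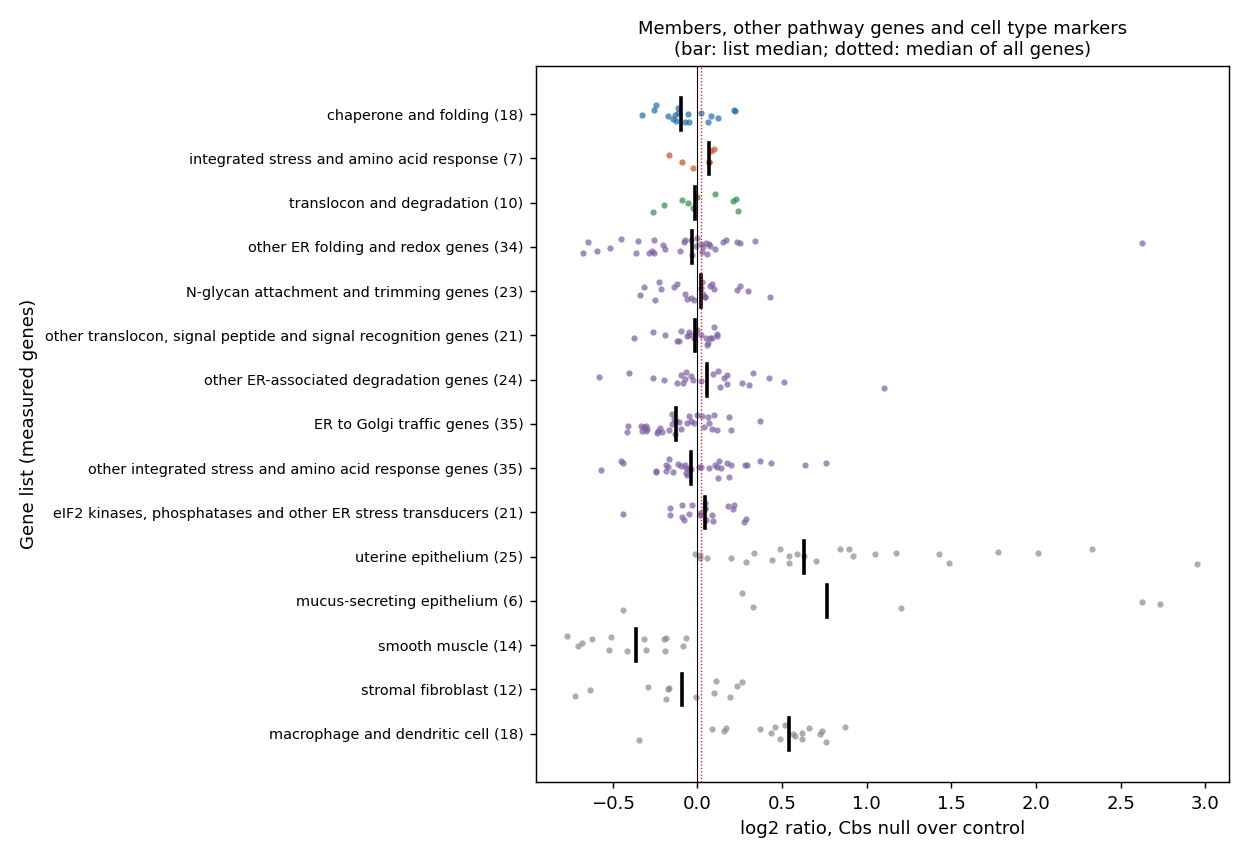
log2 ratio of Cbs null over control for each measured gene (points, brightest probe set) in the 3 arms of the list, in 7 lists of other pathway genes and in 5 lists of cell type markers, with the number measured in brackets, the list median as a bar and the median of all measured genes, 0.019, as a dotted line. The member arms lie close to the dotted line, and the 2 epithelial lists and the macrophage list lie to its right.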

How the data were processed

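Total RNA from 2 samples was labelled as biotinylated cRNA from 2 microg, per the labels' protocols. The deposited table holds 1 linear intensity per probe set and array (22690 probe sets). GCOS 1.4 is named per the submitters' processing notes, while the sources used here do not give the summarisation, the scaling target or detection calls. Both arrays had one scale, with 2% trimmed means of 200.08 and 200.07, so each difference is relative to all other signal. The number of arrays limits the precision.

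A platform annotation gave 1 gene symbol for 20380 probe sets, of which 20351 matched a RefSeq gene table (GRCm38.p6) by gene ID. Those with several symbols (691) or none (1555) were left out. Signals under the 40th percentile were raised to it before log2 ratios were taken, with Python 3.11.15, pandas 2.3.3 and numpy 2.4.6, and the steps were checked on simulated data. No test was possible, so sizes of 1.5-fold and 2-fold were fixed in place of one. The members and lists were chosen with earlier results of these data known. All members could be named. Of the other lists, genes past 1.5-fold or else the 2 brightest were named, and further names were chosen after their values were seen, as were the 1.2-fold limit and the genes named for their promoter element. Alternatives were centring, quantile normalization, another floor (the 20th or the 60th percentile), a pseudocount of 16 in its place, the mean over probe sets and leaving out probe sets with the suffixes _s_at, _x_at and _a_at. Protein sequences were not analysed here.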

Additional observations from a re-analysis of the deposited data

Results flagged for a closer look

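Signal outside the gene-level comparison was seen in probe sets that the annotation gives to a member together with a second gene, and which were therefore left out. A probe set shared by Phgdh and Gm6756 read 120.8 (control) and 169.7 (Cbs null), and one shared by Phgdh and Gm8096 read 42.7 and 51.1. Both were higher in the Cbs null sample, like the 4 probe sets annotated to Phgdh alone, but which of the genes they measured was not tested. Those 4 all have the suffix _x_at, and whether they measure only Phgdh was not tested either. Another one, shared by Sec61b and Gm10320, was under the floor in both samples, at 38.5 and 12.9.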

How the results depend on the processing

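Of 237 recomputed values of single members, 232 moved by less than the SD of 0.215 between probe sets of 1 gene, and 5 moved more, of Derl1, Dnajc3, Ero1a, Hyou1 and Sec63, each through the choice of probe set. With the mean over probe sets the median of the chaperone and folding genes was -0.024. Without probe sets of the suffixes _s_at, _x_at and _a_at it was -0.034, and that of the integrated stress genes was -0.024, on the other side of 0. Those 2 settings use other probe sets, and the second left 29 of 35 members. With the floor at the 20th percentile, 2 members were at least 1.5-fold higher, Trib3 and Sesn2, where 7.05% of all 10738 genes measured with that floor were. Both lie under the floor otherwise, and Sesn2 has an opposite second probe set. At a limit of 1.2-fold 1 member was lower. The other counts stayed at 0, and the translocon and degradation median stayed below 0, under the settings run. Calr stayed between -0.35 and -0.32 under the 6 settings that kept a probe set for it, whereas Hspa5 lay between -0.02 and 0.07. No paired analysis was possible because each group has 1 array, and leaving out a replicate could not be run for the same reason. Signals near the floor of 43.2 limit what can be said of Trib3, Chac1, Sesn2 and Ern1.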
